A study of Mus musculus with 12 samples.

Results

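Type I interferon-stimulated genes were examined in myeloid-derived suppressor cells (MDSCs) sorted from mouse liver tumors. A list of 42 mouse genes that type I interferon is known to induce was looked up by symbol, and all 42 were found among the 24346 gene symbols measured in each of the 12 libraries. Of these, 39 genes reached an FPKM (read fragments mapped to a gene, divided by its transcript length and by the size of the library) of at least 1 in at least 2 libraries and are described here. The other 3 genes, Ifit3, Mx2 and Ifi44, did not. The gene just inside this minimum was Ifit1, which was at 1.06 and 1.04 FPKM in vehicle-treated PMN-MDSCs, and the gene just outside it was Ifit3, whose highest value in any library was 0.515 FPKM. The 39 genes fall into 10 groups by role, from nucleic acid sensors and transcription factors to the IFIT, OAS, Mx, ISG15, PARP, IFITM and Schlafen proteins and other effectors.

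Type I interferons bind the receptor formed by IFNAR1 and IFNAR2, which activates the kinases JAK1 and TYK2. Transcription factor complexes that contain IRF9 then bind the interferon-stimulated response element in the promoters of target genes, whose products detect foreign nucleic acid, block the entry or replication of viruses and tune the response itself. Myeloid cells are known both as sources and as targets of type I interferon, and some of these genes are also expressed in myeloid cells without it.

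Both MDSC subsets, monocytic (M-MDSC) and polymorphonuclear (PMN-MDSC), were isolated by cell sorting from tumors of wild-type mice, and each subset was represented by 2 libraries from mice given vehicle, 2 from mice given MS-275 (labeled MS275) and 2 from mice given CXD101. Hepa 1-6 cells, a mouse hepatoma line, were injected into the liver of female C57BL/6 J mice of 6 to 8 weeks of age. Both agents inhibit histone deacetylases (HDACs) 1 to 3 and were injected intraperitoneally at 5 mg/kg daily for 10 days, starting 10 days after inoculation in mice chosen for a high share of MDSCs in the blood. The methods state this schedule for the M-MDSC experiment, and the labels do not say whether the libraries of the subsets came from the same animals, nor whether animals were pooled. Control mice carried the same tumor and received the solvent.

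The values were close between replicate libraries, with a correlation across genes of 0.988 to 0.991. Depth, read from how low FPKM values are spaced, was about 8.51e+06 to 1.07e+07 reads in M-MDSC libraries and 7.08e+06 to 8.13e+06 reads in PMN-MDSC libraries, so that an FPKM of 1 in a 2 kb transcript stood for about 14.2 to 21.4 reads. The labeled subsets were checked against markers. In vehicle-treated mice, all 7 neutrophil markers measured were higher in PMN-MDSCs and 5 of 6 monocyte markers were higher in M-MDSCs, while Ly6g, the defining antigen of the PMN-MDSC gate, was not found among the symbols. Marker levels moved with treatment. In PMN-MDSCs the neutrophil markers summed to 4438 to 5061 FPKM in vehicle libraries, 24452 to 24572 under MS-275 and 29333 to 30117 under CXD101. Ngp made up most of the inhibitor sums (means of 14431 and 19288 FPKM). Of the 7 markers, 6 were called higher under each inhibitor, and Mmp9 was called lower under MS-275 (mean 1061 to 675 FPKM). The monocyte markers rose from 690 to 765 FPKM in sum to 1568 to 1851, with 2 of 6 called higher and 1 lower under each inhibitor. The conventional dendritic markers fell from 46.0 to 52.7 FPKM to 10.7 to 11.1. Itgax made up most of these sums (means of 44.1 FPKM with vehicle, 9.78 under MS-275 and 8.88 under CXD101). Only 2 genes of this list could be tested there, and both were called lower. Clec9a, a scarce one, had higher means with an inhibitor (0.480 FPKM with vehicle, 0.596 under MS-275 and 0.950 under CXD101). The macrophage markers fell from 174 to 186 FPKM to 83.5 to 99.2. S100a8 and S100a9 together rose from 10.2% to 13.7% of all FPKM to 27.3% to 30.9%. In M-MDSCs the eosinophil markers rose from 10.2 to 14.9 FPKM to 112 to 163, and the macrophage markers fell from 147 to 148 FPKM to 70.2 to 77.1 under MS-275. Of the 6 macrophage markers tested there, 5 were called lower, among them Mrc1 (mean 80.6 to 15.0 FPKM). Adgre1 went the other way (mean 40.2 to 56.1 FPKM) and was not called. The part of these markers in the results for the interferon-stimulated genes was not tested. Plasmacytoid dendritic cells, the classical producers of type I interferon, had their defining markers Siglech and Ccr9 at 0 to 0.187 FPKM in every library. All 9 markers of that list summed to 17.7 to 21.2 FPKM in vehicle PMN-MDSCs and 31.8 to 36.6 FPKM with an inhibitor, where Il3ra was the 1 marker called higher, and to 19.0 to 19.9 FPKM in vehicle M-MDSCs and 24.7 to 28.9 FPKM with an inhibitor, where Cox6a2 and Tcf4 were called higher under MS-275. The part of such cells in the results was not tested. In bulk libraries, fewer cells of a type and less RNA per cell cannot be told apart.

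The promoters are shown first for the 4 genes with the largest rise under MS-275 in PMN-MDSCs, because they lie in pairs on 2 chromosomes and each pair moved together. Each sequence is the RefSeq window of GRCm38.p6 from 250 bases before to 50 bases after the annotated start, given 5′ to 3′ on the strand of the gene. The annotated start of the window lies 1032 bases inside the outermost GENCODE boundary of Ifitm6 and 855 bases inside that of Ifitm1, so that other starts of these genes are not covered. Capitals mark a match to the core of an interferon-stimulated response element, which is GAAA, any 2 bases and GAAA again, or TTTC, any 2 bases and TTTC where it lies on the opposite strand.
Ifitm6, chr7:141016843-141017142, minus strand: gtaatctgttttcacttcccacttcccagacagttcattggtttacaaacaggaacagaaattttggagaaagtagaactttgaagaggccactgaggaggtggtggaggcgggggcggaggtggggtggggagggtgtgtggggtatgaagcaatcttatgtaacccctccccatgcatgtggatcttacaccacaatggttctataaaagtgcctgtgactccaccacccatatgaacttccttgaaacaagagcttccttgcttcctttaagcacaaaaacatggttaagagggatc
Ifitm1, chr7:140967826-140968125, plus strand: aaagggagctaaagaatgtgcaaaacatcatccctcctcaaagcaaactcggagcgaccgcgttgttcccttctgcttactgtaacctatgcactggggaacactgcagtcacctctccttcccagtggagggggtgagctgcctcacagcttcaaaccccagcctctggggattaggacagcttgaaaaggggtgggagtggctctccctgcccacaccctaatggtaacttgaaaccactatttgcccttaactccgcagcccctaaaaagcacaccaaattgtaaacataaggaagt
Rsad2, chr12:26456403-26456702, minus strand: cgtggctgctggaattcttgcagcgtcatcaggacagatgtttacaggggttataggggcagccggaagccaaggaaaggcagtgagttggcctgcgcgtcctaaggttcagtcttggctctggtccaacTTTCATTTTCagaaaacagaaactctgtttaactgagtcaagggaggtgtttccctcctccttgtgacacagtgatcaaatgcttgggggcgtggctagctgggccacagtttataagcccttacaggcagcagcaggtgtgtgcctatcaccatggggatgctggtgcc
Cmpk2, chr12:26468965-26469264, plus strand: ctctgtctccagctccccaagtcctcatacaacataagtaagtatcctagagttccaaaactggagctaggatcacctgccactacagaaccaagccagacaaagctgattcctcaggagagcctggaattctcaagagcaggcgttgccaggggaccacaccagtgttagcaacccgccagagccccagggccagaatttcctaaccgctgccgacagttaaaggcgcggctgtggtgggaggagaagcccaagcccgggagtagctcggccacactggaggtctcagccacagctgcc

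The Rsad2 window held 1 match, 120 bases before the start and on the opposite strand, and the windows of Ifitm6, Ifitm1 and Cmpk2 held none. These letters were absent from those windows only, which says nothing of binding elsewhere. A RefSeq window was found for 31 of the 39 genes, and 13 of these held the motif (41.9%), against 1079 of all 27025 genes with a window (3.99%). Among the 12 genes with a window that rose under both inhibitors in PMN-MDSCs, 5 held it (41.7%), and among the other 19 genes with a window, 8 did (42.1%). A gene was counted once if either strand held a match, and overlapping matches were not merged. Counted by a rise under MS-275 alone, which adds Isg15 and Ddx58 to the genes that rose, it was 7 of 14 genes (50%) against 6 of 17 (35.3%). The matches of the 5 genes that rose under both inhibitors, and the overlapping matches of Isg15, which rose under MS-275, are given with 10 bases on each side.
Oas3, 75 bases before the start: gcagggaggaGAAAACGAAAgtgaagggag
Ifitm2, 46 bases before the start: ccaccaacagGAAAAGGAAAttgctagaga
Ifitm3, 2 bases after the start: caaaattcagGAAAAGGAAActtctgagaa
Ifitm3, 19 bases after the start: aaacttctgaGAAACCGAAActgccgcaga
Slfn5, 155 bases before the start: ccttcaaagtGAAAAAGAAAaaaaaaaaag
Rsad2, 120 bases before the start: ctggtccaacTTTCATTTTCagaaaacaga
Isg15, 78 bases before the start: tatgccgtagGAAAAGGAAAccgaaacaga
Isg15, 72 bases before the start: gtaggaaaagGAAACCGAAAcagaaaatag
Isg15, 66 bases before the start: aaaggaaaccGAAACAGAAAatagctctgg
No window was in the table for Oas2, Mx1, Dhx58, Zbp1, Parp9, Parp14, Rtp4 and Usp18.

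The first comparison asked how the genes differed between the subsets without an inhibitor. In vehicle-treated mice, 18 of the 39 genes were higher in PMN-MDSCs and 3 were lower (46.2% and 7.69%), against 17.2% and 16.8% of all 11662 genes tested. Here and below, a gene was called at an adjusted p under 0.05 and a fold change above 1.5 in limma on log2(FPKM + 1), with 2 libraries a group, and errors are standard errors. The median difference was 0.55 on the log2 scale for the 39 genes and -0.01 for all genes. The genes higher in PMN-MDSCs included Slfn1 and Slfn4, the OAS genes Oasl2, Oas2 and Oas3, Ifitm6, and Irf7, a transcription factor that amplifies the interferon response. The genes lower in PMN-MDSCs were Ifitm3, Bst2 and Ifit2. Ifit1, Rsad2, Oasl1, Oas2, Rtp4 and Usp18 were below 1 FPKM in both vehicle M-MDSC libraries, as were 1039 of all 11662 genes tested. These could hardly be called lower in PMN-MDSCs, and Rsad2, Oas2, Rtp4 and Usp18 are among the 18 called higher. Ifit2 was not called without M-MDSC vehicle replicate 1 (-0.53), Cmpk2 without PMN-MDSC vehicle replicate 2 (0.57), and Parp14 without vehicle replicate 2 of either subset, with quantile normalization or at equal sums.

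Slfn1 was at 13.1 and 10.98 FPKM in the vehicle M-MDSC libraries and at 247 and 305 FPKM in the vehicle PMN-MDSC libraries, a log2 fold change of 4.41 ± 0.19 (adjusted p = 2.12e-08). Slfn4 was at 1.29 and 2.32 FPKM against 49.4 and 60.8 FPKM (4.34 ± 0.25, adjusted p = 1.38e-07). Oasl2 was at 1.27 and 0.914 FPKM against 17.6 and 21.2 FPKM (3.29 ± 0.14, adjusted p = 1.89e-08). The libraries of the subsets did not overlap for any of these genes. Irf7 was higher by 2.37 ± 0.12 on the log2 scale, and Irf9 by 1.199 ± 0.08. In the other direction, Ifitm3 was at 486 and 464 FPKM in M-MDSCs and 311 and 288 FPKM in PMN-MDSCs (-0.66 ± 0.07, adjusted p = 1.95e-05). Bst2, which encodes tetherin and holds budding virus at the cell surface, was at 67.01 and 79.6 FPKM against 49.8 and 44.7 FPKM (-0.62 ± 0.13), and this call was lost without vehicle replicate 2 of either subset. The remaining 18 genes were not called, among them Mx1, Ifih1 and Ifitm2.

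**Figure D1:**
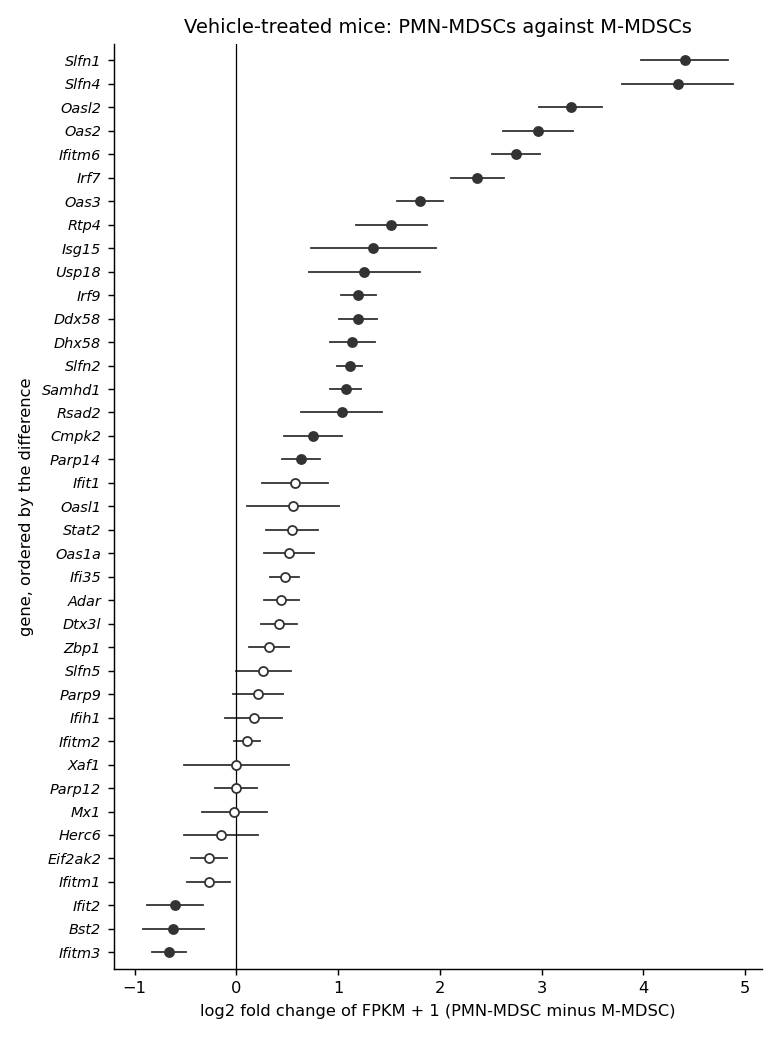
Difference between the subsets in vehicle-treated mice for the 39 genes, as the log2 fold change of FPKM + 1 (PMN-MDSC minus M-MDSC, horizontal axis) with its 95% confidence interval. Filled points mark called genes, of which 18 lie to the right of 0 and 3 to the left.

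The IFITM genes and Slfn2 made up most of the signal in both subsets. The 39 genes summed to 1825 to 1844 FPKM in the vehicle M-MDSC libraries, of which the 4 IFITM genes took 68.9% to 69.5%, and to 2526 to 2601 FPKM in the vehicle PMN-MDSC libraries, where they took 45.8% to 49.6%. The highest gene in M-MDSCs was Ifitm1, at a mean of 505 FPKM, followed by Ifitm3, Ifitm2 and Slfn2. In PMN-MDSCs the highest was Slfn2, at a mean of 516 FPKM, followed by Ifitm1, Ifitm3, Slfn1 and Ifitm2. At the other end, several genes were scarce in M-MDSCs. Ifit1, Rsad2, Oasl1, Oas2 and Rtp4 did not reach an FPKM of 1 in 2 of the M-MDSC libraries and were not tested there.

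The second comparison asked what the HDAC inhibitors did to these genes in PMN-MDSCs. MS-275 raised 18 of the 39 genes and lowered 3 (46.2% and 7.69%), against 14.6% and 14.2% of all 11184 genes tested. CXD101 raised 16 and lowered 1 (41.0% and 2.56%), against 11.9% and 9.54%. The median change of the 39 genes (log2) was 0.46 with MS-275 and 0.41 with CXD101, and that of all genes was -0.03 with each. These comparisons share the vehicle libraries. The genes that rose under each inhibitor were all 4 IFITM genes, Rsad2 and Cmpk2, Oas3, Oas2 and Oasl1, the sensors Zbp1 and Dhx58, Irf7, Ifit2, Rtp4, Slfn4 and Slfn5, and under MS-275 also Ddx58 and Isg15. Mx1 fell under both inhibitors, and Slfn1 and Slfn2 fell under MS-275. Without PMN-MDSC CXD101 replicate 1, 2 genes were lower under CXD101, the second being Bst2.

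The split between rises and falls moved when libraries were scaled to equal sums, but not with the other scalings. With median-of-ratios scaling and with quantile normalization, MS-275 raised 18 genes and lowered 3. CXD101 raised 16 and lowered 1 with each. Quantile normalization changed which genes rose under CXD101, with Ifit2 and Oasl1 lost and Ddx58 and Oasl2 gained. The deposited FPKM values of a PMN-MDSC library summed to 656932 to 674361 with vehicle and to 836748 to 860841 with an inhibitor. S100a8 and S100a9 made up 10.2% to 13.7% of these sums with vehicle and 27.3% to 30.9% with an inhibitor. Scaling to equal sums lowers the other genes where such abundant genes rise. The part of these 2 genes in the calls that moved was not tested. When every library was scaled to the same sum, an alternative added after the data had been seen, the median of all genes in PMN-MDSCs shifted by -0.31 on the log2 scale under both inhibitors. The counts then became 12 higher and 5 lower under MS-275, and 12 higher and 4 lower under CXD101. The shares of all genes called with this scaling were not computed, so these counts cannot be read against them. Ifitm1, Ifitm2, Ifitm6, Cmpk2, Rsad2, Slfn4, Slfn5, Zbp1, Oas3, Irf7 and Ifit2 rose under both inhibitors with this scaling too. Ifitm3, Oas2 and Rtp4 no longer passed the threshold under either inhibitor, and Bst2 was called lower under both.

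The third comparison asked the same of M-MDSCs, where 34 of the 39 genes could be tested. MS-275 raised 6 genes and lowered 4 (17.6% and 11.8%), against 10.1% and 7.32% of all 11078 genes tested. CXD101 raised 2 and lowered 0 (5.88% and 0%), against 5.14% and 3% of all genes, so that the share of the interferon-stimulated genes called under CXD101 was near that of genes in general. In the limma fit, 5 of the genes were higher and 9 lower under CXD101 at an unadjusted p under 0.05. At an adjusted p under 0.05 without the fold threshold, 5 were higher and 4 lower. The shares of all genes at these thresholds were not computed. The genes raised by MS-275 were Ifitm6, Oas3, Dhx58, Ifit2, Ifitm1 and Usp18, and those lowered were Slfn1, Slfn2, Mx1 and Parp9. Ifitm6 and Dhx58 rose under both inhibitors. The median change was 0.10 under MS-275 and -0.02 under CXD101 for these genes, against -0.06 and -0.02 for all genes. Leaving out 1 library mattered more here. Without M-MDSC MS-275 replicate 1 the count lowered by MS-275 was 2, with Mx1 and Parp9 lost, and the count raised by CXD101 was 1 without vehicle replicate 2 or CXD101 replicate 1, with Dhx58 lost, and 3 without CXD101 replicate 2.

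**Figure D2:**
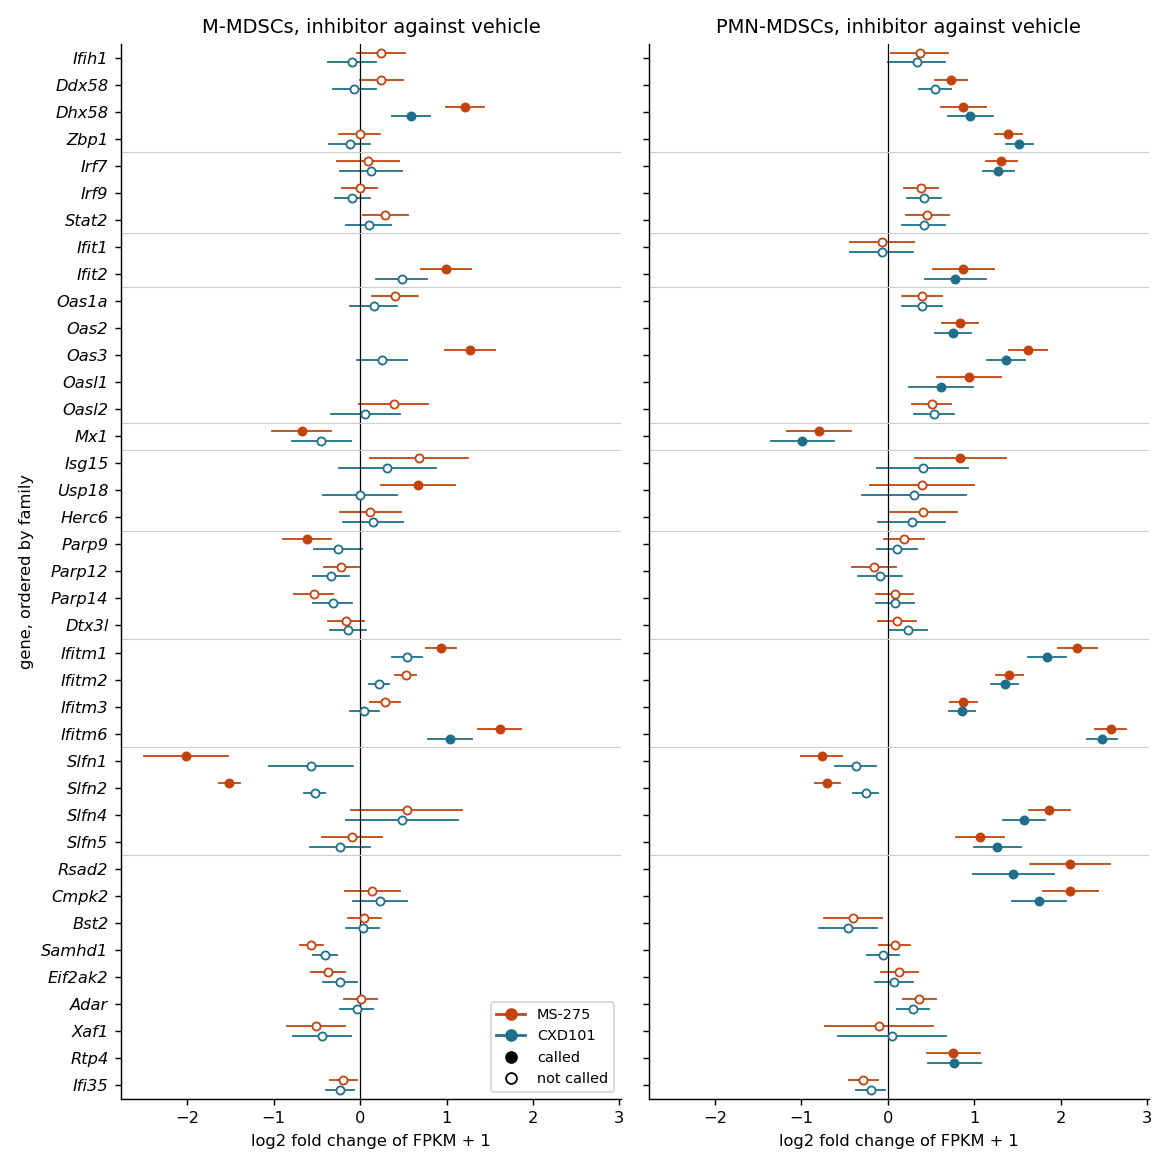
Log2 fold change of FPKM + 1 against vehicle (horizontal axis) of the interferon-stimulated genes, ordered by family, in M-MDSCs (left, 34 genes) and PMN-MDSCs (right, 39 genes) under MS-275 and CXD101, with 95% confidence intervals. Filled points mark called genes. In PMN-MDSCs 18 and 16 genes are filled on the right of 0, and in M-MDSCs 6 and 2.

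The IFITM genes encode small membrane proteins that stop enveloped viruses from fusing with the cell. The 4 genes lie within 63.1 kb on chromosome 7 (chr7:140954837-141017924, GRCm38), and in PMN-MDSCs all 4 rose under both inhibitors, although Ifitm3 missed the fold threshold when libraries were scaled to equal sums. Ifitm6 was at 211 and 241 FPKM in the vehicle PMN-MDSC libraries, 1390.3 and 1319 under MS-275 and 1238 and 1285 under CXD101, log2 fold changes of 2.58 ± 0.08 (adjusted p = 9.04e-07) and 2.48 ± 0.08 (adjusted p = 1.56e-06). This was the largest rise of the 39 genes under each inhibitor on this scale, although with a pseudocount of 0.1 Rsad2 rose more under MS-275 (2.68), and every inhibitor library lay above every vehicle library. In M-MDSCs Ifitm6 started lower, at 31.7 and 33.7 FPKM, and reached 94.8 and 109.9 under MS-275 (1.61 ± 0.11, adjusted p = 2.13e-05) and 76.5 and 61.3 under CXD101 (1.04 ± 0.11, adjusted p = 0.000548). Ifitm6 in inhibitor-treated M-MDSCs thus stayed below its level in vehicle-treated PMN-MDSCs.

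Ifitm1 was at 451 and 389 FPKM in vehicle PMN-MDSCs, 1779 and 2071 under MS-275 (2.19 ± 0.10) and 1475 and 1535 under CXD101 (1.84 ± 0.10). In M-MDSCs it was at 491 and 519.8 FPKM with vehicle, 929 and 1004 under MS-275 (0.93 ± 0.08, adjusted p = 4.39e-05) and 785 and 688 under CXD101. The last change was 0.54 ± 0.08 (adjusted p = 0.00193), which passed the test but not the fold threshold. With vehicle, Ifitm1 was lower in PMN-MDSCs in each library (-0.27 ± 0.10, adjusted p = 0.0294), and with an inhibitor every PMN-MDSC library was above every M-MDSC library. Ifitm3 was at 534 and 566 FPKM under MS-275 and 558 and 529 under CXD101 in PMN-MDSCs (0.88 ± 0.07 and 0.86 ± 0.07). In M-MDSCs it was at 555 and 605 FPKM under MS-275 and 523 and 463 under CXD101, and neither change reached 1.5-fold. Ifitm2 rose by 1.41 ± 0.07 and 1.35 ± 0.07 in PMN-MDSCs, and in M-MDSCs its change under MS-275 was 0.53 ± 0.05. The shares of reads between Ifitm2 and Ifitm3, which are close paralogs, are uncertain, and Ifitm2 overlaps the annotated gene Gm45717 on the same strand. With these rises, the IFITM genes took 73.6% to 78.0% of the summed FPKM of the 39 genes in inhibitor-treated PMN-MDSCs.

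The Schlafen genes, a rodent-expanded family linked to the growth and quiescence of immune cells, lie within 239 kb on chromosome 11 (chr11:82951349-83190216) and did not move as 1 group. Slfn2, whose product keeps T cells quiescent, was at 234 and 242 FPKM in vehicle M-MDSCs, 83.5 and 82.1 under MS-275 and 169 and 161 under CXD101. The fold change under MS-275 was -1.51 ± 0.05 on the log2 scale (adjusted p = 1.71e-06), while that under CXD101 was -0.53 ± 0.05 and stayed under the fold threshold. In PMN-MDSCs Slfn2 was at 493 and 539 FPKM with vehicle, 318 and 316 under MS-275 (-0.70 ± 0.06, adjusted p = 8.38e-05) and 427 and 438 under CXD101 (-0.25 ± 0.06). In both subsets the MS-275 libraries were the lowest and the CXD101 libraries lay between them and vehicle.

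Slfn1 was at 1.61 and 2.96 FPKM under MS-275 and 9.22 and 6.53 under CXD101 in M-MDSCs, a log2 fold change under MS-275 of -2.01 ± 0.21 (adjusted p = 0.00017). In PMN-MDSCs it was at 169 and 154 FPKM under MS-275 (-0.76 ± 0.10, adjusted p = 0.000565) and 206 and 219.5 under CXD101 (-0.37 ± 0.10). Slfn4 went the other way. It was at 212 and 195 FPKM under MS-275 and 158 and 173 under CXD101 in PMN-MDSCs (1.87 ± 0.10 and 1.58 ± 0.10), against 1.97 and 4.404 and 3.17 and 2.57 FPKM in M-MDSCs. Slfn5 rose in PMN-MDSCs by 1.07 ± 0.12 and 1.27 ± 0.12. Within 1 gene cluster and 1 subset, Slfn4 and Slfn5 thus rose under MS-275 while Slfn1 and Slfn2 fell. When libraries were scaled to equal sums, Slfn1 and Slfn2 also passed the threshold for a fall under CXD101 in PMN-MDSCs. The Schlafen genes are close paralogs, and reads may be divided between them.

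**Figure D3:**
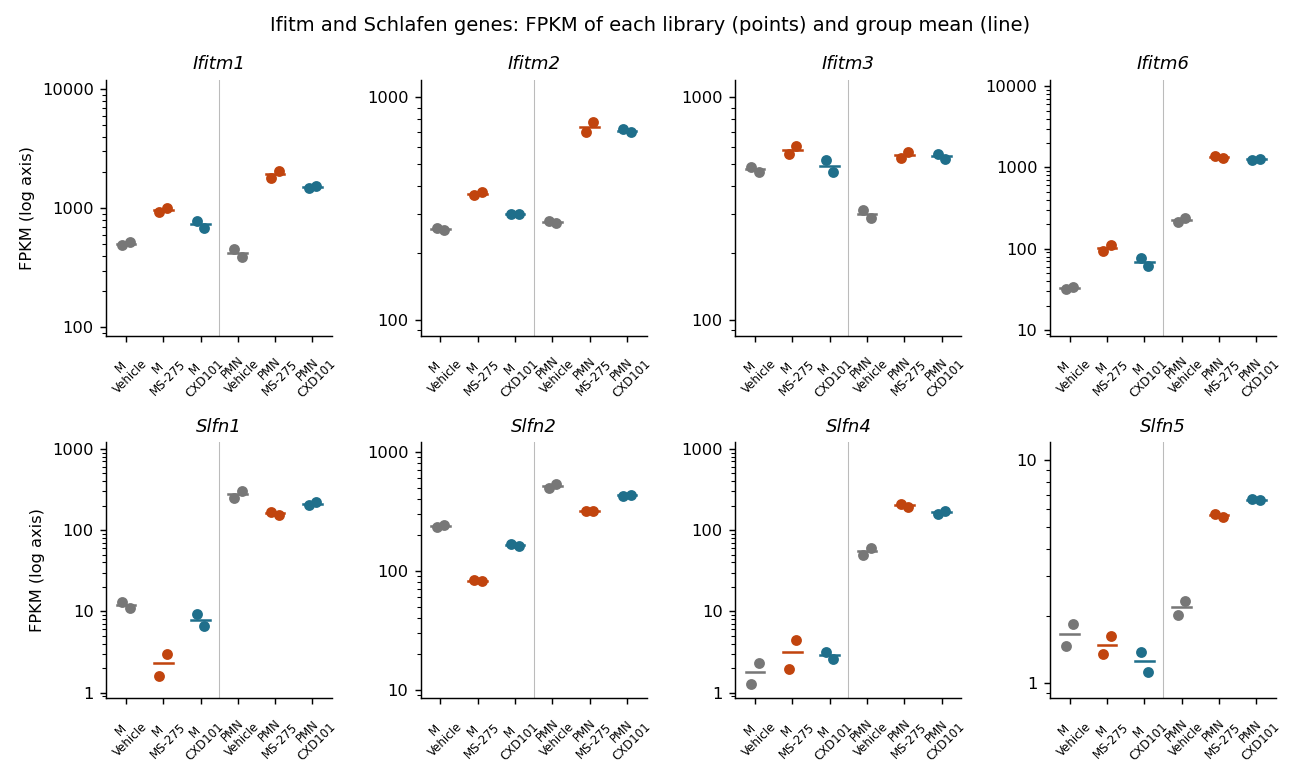
FPKM (log axis) of the IFITM genes on chromosome 7 and the Schlafen genes on chromosome 11 in each of the 12 libraries (points), with the group mean (line). In PMN-MDSCs the inhibitor libraries lie above vehicle for Ifitm1, Ifitm2, Ifitm3, Ifitm6, Slfn4 and Slfn5 and below it for Slfn1 and Slfn2.

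Rsad2 and Cmpk2 are neighbors on chromosome 12 with a gap of 12.8 kb between them. Rsad2 encodes viperin, which makes a chain-terminating nucleotide from CTP, and Cmpk2 encodes a mitochondrial nucleotide kinase. Cmpk2 was at 2.33 and 3.33 FPKM in vehicle PMN-MDSCs, 15.7 and 15.2 under MS-275 (2.11 ± 0.14, adjusted p = 1.94e-05) and 11.9 and 11.7 under CXD101 (1.75 ± 0.14, adjusted p = 7.14e-05). Rsad2 was at 0.942 and 2.0001 FPKM with vehicle, 9.42 and 9.38 under MS-275 (2.11 ± 0.20, adjusted p = 0.00011) and 5.24 and 6.02 under CXD101 (1.46 ± 0.20, adjusted p = 0.000934). The vehicle libraries of Rsad2 differed among themselves more than the inhibitor libraries did, and the groups did not overlap. In M-MDSCs Rsad2 stayed under 1 FPKM in all 6 libraries and Cmpk2 was at 1.31 and 1.197 FPKM with vehicle, 1.59 and 1.39 under MS-275 and 1.53 and 1.76 under CXD101, with neither change called.

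The OAS proteins make short adenylate chains that activate RNase L when they meet double-stranded RNA. Oas1a, Oas2 and Oas3 lie within 177 kb on chromosome 5 and Oasl1 and Oasl2 within 41.0 kb on the same chromosome. Oas3 was at 8.09 and 8.24 FPKM in vehicle PMN-MDSCs, 26.4 and 27.98 under MS-275 (1.62 ± 0.09, adjusted p = 1.25e-05) and 24.2 and 21.2 under CXD101 (1.37 ± 0.09, adjusted p = 4.34e-05). M-MDSCs had Oas3 at 1.56 and 1.69 FPKM with vehicle, 4.87 and 5.84 under MS-275 (1.27 ± 0.13, adjusted p = 0.000123) and 2.11 and 2.16 under CXD101 (0.26 ± 0.13, adjusted p = 0.179). Oas3 thus rose under both inhibitors in PMN-MDSCs, and in M-MDSCs it was called under MS-275 only.

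Oas2 was at 10.3 and 10.3 FPKM in vehicle PMN-MDSCs, 18.6 and 19.7 under MS-275 (0.84 ± 0.09) and 18.9 and 17.2 under CXD101 (0.75 ± 0.09). It was at 0.25997 and 0.651 FPKM in vehicle M-MDSCs, 0.989 and 1.64 under MS-275 and 0.717 and 0.843 under CXD101. Oasl2 was at 28.2 and 27.6 FPKM under MS-275 and 28.4 and 28.5 under CXD101 in PMN-MDSCs, changes of 0.51 ± 0.10 and 0.53 ± 0.10 that passed the test but not the fold threshold. In M-MDSCs it was at 1.499 and 1.97 and 1.42 and 0.947 FPKM. Oas1a was between 6.48 and 15.2 FPKM in all libraries and was not called in any inhibitor comparison. Oasl1 rose in PMN-MDSCs by 0.94 ± 0.16 under MS-275 and 0.61 ± 0.16 under CXD101, from under 1 FPKM in both vehicle libraries. The call under CXD101 was lost without PMN-MDSC vehicle replicate 2 (0.51, adjusted p = 0.088) and without CXD101 replicate 1 (0.53, adjusted p = 0.0866).

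Among the sensors of foreign nucleic acid, Zbp1, which binds Z-form nucleic acid, was at 21.2 and 22.5 FPKM in vehicle PMN-MDSCs, 59.6 and 58.5 under MS-275 (1.39 ± 0.07, adjusted p = 6.18e-06) and 64.5 and 64.98 under CXD101 (1.52 ± 0.07, adjusted p = 6.81e-06). In M-MDSCs it was at 16.7 and 17.9 FPKM with vehicle, 18.7 and 15.8 under MS-275 and 16.9 and 14.8 under CXD101. The M-MDSC groups overlapped, and the 95% interval of the change under MS-275 ran from -0.24 to 0.23. Dhx58, which encodes LGP2, a regulator of RIG-I-like receptors, was at 10.6 and 9.36 FPKM in vehicle PMN-MDSCs, 17.5 and 20.9 under MS-275 and 20.5 and 20.03 under CXD101 (0.88 ± 0.11 and 0.96 ± 0.11). It was also called in M-MDSCs, at 4.09 and 3.86 FPKM with vehicle, 10.96 and 10.1 under MS-275 (1.21 ± 0.10, adjusted p = 4e-05) and 6.596 and 6.38 under CXD101 (0.59 ± 0.10, adjusted p = 0.0038). Dhx58 was thus the sensor that rose in both subsets under both inhibitors, although its rise under CXD101 in M-MDSCs lay just above the fold threshold and its rise under MS-275 in PMN-MDSCs was lost at equal sums. Ddx58, which encodes RIG-I, rose in PMN-MDSCs under MS-275 by 0.73 ± 0.08, and the change under CXD101 was 0.55 ± 0.08, under the fold threshold. Ifih1, which encodes MDA5, was not called in either subset.

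Of the transcription factors, Irf7 rose in PMN-MDSCs by 1.31 ± 0.08 under MS-275 (adjusted p = 1.33e-05) and 1.28 ± 0.08 under CXD101 (adjusted p = 2.38e-05). In M-MDSCs it was between 1.56 and 2.17 FPKM in all libraries and was not called. Irf9, a DNA-binding transcription factor of the interferon response, was at 18.4 and 19.8 FPKM in vehicle PMN-MDSCs, 25.9 and 24.6 under MS-275 and 26.8 and 25.01 under CXD101, changes of 0.38 ± 0.08 and 0.42 ± 0.08 that passed the test but not the fold threshold. In M-MDSCs Irf9 was at 7.87 and 7.66 FPKM with vehicle, 7.62 and 7.83 under MS-275 and 7.44 and 7.01 under CXD101, with no call. Stat2 changed in PMN-MDSCs by 0.46 ± 0.11 and 0.41 ± 0.11, also under the fold threshold. Irf7 overlaps Phrf1 on the other strand and Irf9 overlaps Rnf31 on the same strand, so that part of their reads may belong to the neighbor.

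Isg15 encodes a ubiquitin-like protein that is attached to other proteins during the interferon response. Isg15 was at 8.32 and 9.803 FPKM in vehicle PMN-MDSCs, 15.3 and 18.8 under MS-275 (0.84 ± 0.23, adjusted p = 0.0155) and 9.26 and 16.2 under CXD101 (0.41 ± 0.23, adjusted p = 0.181). Its replicates were spread widely under CXD101, and the call under MS-275 was lost without PMN-MDSC vehicle replicate 1 (adjusted p = 0.0656), without MS-275 replicate 2 (adjusted p = 0.0792), with no filter on low FPKM (adjusted p = 0.0516) and at equal sums (adjusted p = 0.0695). M-MDSCs had Isg15 at 2.41 and 3.58 FPKM with vehicle, 6.53 and 4.32 under MS-275 and 5.09 and 2.97 under CXD101. The change under MS-275 was 0.68 ± 0.24 (adjusted p = 0.0501), just short of the threshold, and it was called higher under 6 alternatives (0.68 to 0.93). Usp18, the protease that removes ISG15, rose in M-MDSCs under MS-275 by 0.67 ± 0.19 (adjusted p = 0.0194). This gene was below 1 FPKM in both vehicle libraries and so could be tested only because of its values under MS-275, and the call was lost without M-MDSC vehicle replicate 1 (adjusted p = 0.104) and with quantile normalization (0.27, adjusted p = 0.297). Herc6, the mouse ligase for ISG15, was not called in any inhibitor comparison.

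Of the Mx and IFIT genes, Mx1 fell and Ifit2 rose. Mx1, a dynamin-like GTPase that is not functional as an antiviral protein in C57BL/6 mice, was at 2.82 and 2.92 FPKM in vehicle M-MDSCs, 1.18 and 1.68 under MS-275 (-0.68 ± 0.15, adjusted p = 0.00657) and 1.66 and 2.02 under CXD101 (-0.45 ± 0.15, adjusted p = 0.0624). In PMN-MDSCs it was at 2.92 and 2.71 FPKM with vehicle, 1.06 and 1.34 under MS-275 (-0.79 ± 0.16, adjusted p = 0.00397) and 0.795 and 1.06 under CXD101 (-0.99 ± 0.16, adjusted p = 0.00189). All inhibitor libraries of both subsets lay below all vehicle libraries. Of the 39 genes, only Mx1 was called lower under both inhibitors in PMN-MDSCs, and at equal sums Bst2, Slfn1 and Slfn2 joined it. Ifit2, which binds viral RNA, rose from 1.85 and 1.56 FPKM to 4.28 and 4.48 under MS-275 in M-MDSCs (0.99 ± 0.13, adjusted p = 0.000458), where it was at 2.54 and 3.02 under CXD101. In PMN-MDSCs it was at 0.7504 and 0.802 FPKM with vehicle, 2.23 and 2.28 under MS-275 (0.88 ± 0.15) and 1.84 and 2.29 under CXD101 (0.78 ± 0.15). Ifit2 and Oasl1 were below 1 FPKM in both vehicle PMN-MDSC libraries, so they entered the test there only through the inhibitor libraries and could hardly be called lower. Ifit1, which recognizes RNA that lacks the methylation of host caps, was between 0.859 and 1.07 FPKM in PMN-MDSCs and was not called.

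**Figure D4:**
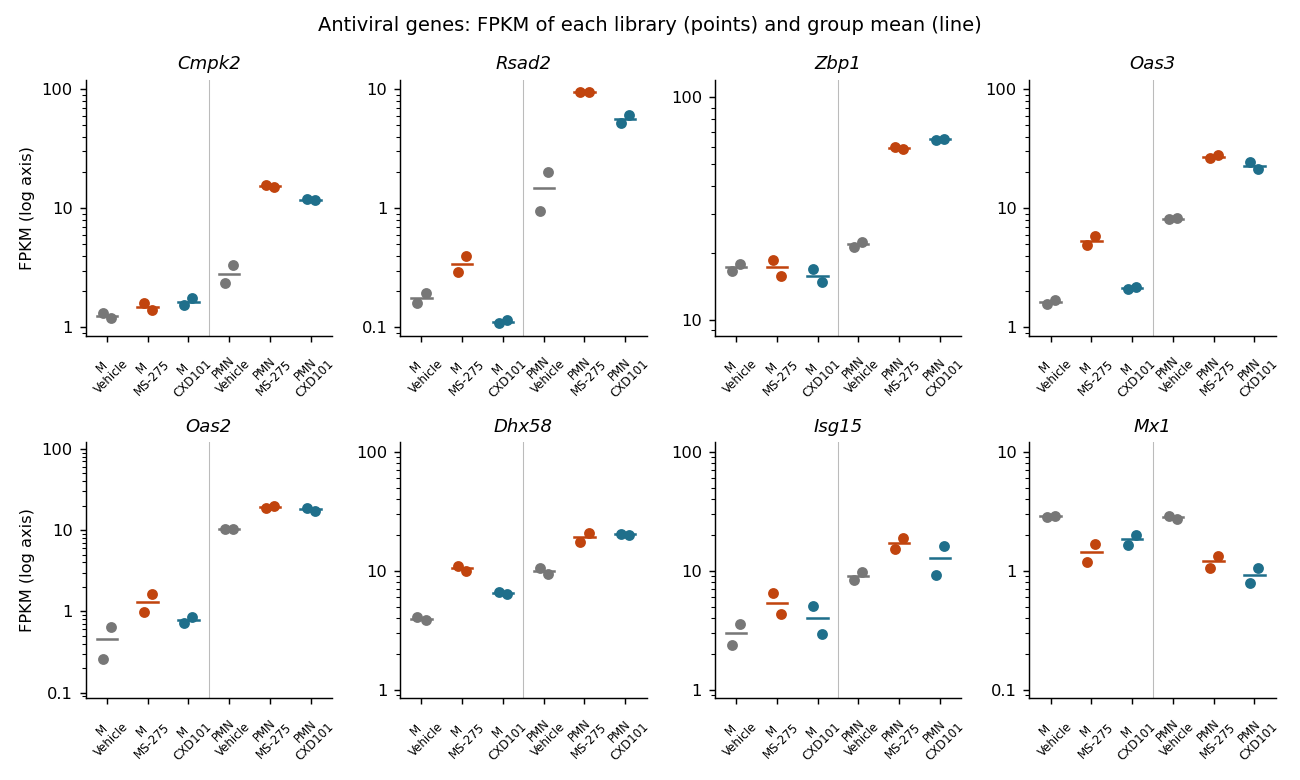
FPKM (log axis) of Cmpk2, Rsad2, Zbp1, Oas3, Oas2, Dhx58, Isg15 and Mx1 in each of the 12 libraries (points), with the group mean (line). In PMN-MDSCs every inhibitor library of the first 6 genes lies above both vehicle libraries, and for Mx1 every inhibitor library lies below them.

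None of the 4 PARP and Dtx3l genes was called in PMN-MDSCs under either inhibitor in the limma fit. Parp9 and Dtx3l encode a mono-ADP-ribosyltransferase and the ubiquitin ligase bound to it, and overlap by 0.682 kb on opposite strands of chromosome 16. Parp9 was at 8.24 and 6.76 FPKM in vehicle M-MDSCs, 4.15 and 4.96 under MS-275 (-0.61 ± 0.12, adjusted p = 0.00415) and 6.01 and 6.15 under CXD101. In PMN-MDSCs it was at 8.999 and 8.63 FPKM with vehicle, 10.7 and 9.66 under MS-275 and 9.2997 and 9.84 under CXD101. The fall in M-MDSCs was close to the fold threshold and was lost without vehicle replicate 1 (-0.49) and without MS-275 replicate 1 (-0.51), and with median-of-ratios scaling and equal sums (-0.58 in each). Parp14, another gene of this region, was at 7.83 and 7.03 FPKM in vehicle M-MDSCs, 4.76 and 4.85 under MS-275 and 5.83 and 5.69 under CXD101, a change under MS-275 of -0.54 ± 0.10 that was under the fold threshold. In PMN-MDSCs Parp14 was between 11.6 and 13.3 FPKM in all 6 libraries. Parp12 and Dtx3l were not called in any inhibitor comparison.

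Samhd1, which hydrolyzes deoxynucleotides, was at 76.4 and 77.8 FPKM in vehicle M-MDSCs, 50.97 and 52.6 under MS-275 and 56.6 and 59.4 under CXD101. These changes of -0.57 ± 0.06 (adjusted p = 0.000162) and -0.41 ± 0.06 (adjusted p = 0.00234) passed the test but not the fold threshold. In PMN-MDSCs it was at 153 and 175 FPKM with vehicle, 179 and 167 under MS-275 and 159 and 156 under CXD101, and the inhibitor groups overlapped with vehicle. Bst2 was at 31.1 and 40.4 FPKM under MS-275 and 38.1 and 30.5 under CXD101 in PMN-MDSCs (-0.40 ± 0.15 and -0.46 ± 0.15), both below vehicle but under the fold threshold, and at 76.3 and 74.7 and 72.4 and 76.8 FPKM in M-MDSCs. Bst2 was called lower under both inhibitors at equal sums, under MS-275 without MS-275 replicate 2 (-0.59) and under CXD101 without CXD101 replicate 1 (-0.61). Rtp4 rose in PMN-MDSCs by 0.76 ± 0.13 and 0.77 ± 0.13. Adar, which edits double-stranded RNA, Eif2ak2, which encodes the kinase PKR, Ifi35 and Xaf1 were not called in any inhibitor comparison. Ifi35 was called lower under MS-275 in PMN-MDSCs at equal sums, and Xaf1 was called lower under MS-275 in M-MDSCs with a pseudocount of 0.1 (-0.81), with quantile normalization (-0.83) and without M-MDSC vehicle replicate 1.

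MS-275 and CXD101 were also compared directly, at the same stated dose and schedule, in 1 comparison per subset. In PMN-MDSCs limma called 0 of the 39 genes higher and 0 lower, against 0.465% and 0.34% of all genes tested, while at an unadjusted p under 0.05 the MS-275 libraries were higher for 5 genes and lower for 2. Slfn2 was lower under MS-275 than under CXD101 by less than 1.5-fold (-0.45 ± 0.06, adjusted p = 0.0251). The difference was 0.65 ± 0.20 for Rsad2 (95% interval 0.19 to 1.12, adjusted p = 0.193), 0.36 ± 0.14 for Cmpk2 (95% interval 0.05 to 0.68) and 0.10 ± 0.08 for Ifitm6 (95% interval -0.07 to 0.28). The intervals of Rsad2 and Cmpk2 thus allow a difference above 1.5-fold, and that of Ifitm6 does not. A p that misses the threshold does not show that the inhibitors act alike.

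In M-MDSCs the inhibitors differed more. Here 3 of the 34 genes were higher under MS-275 than under CXD101 and 2 were lower (8.82% and 5.88%), against 3.22% and 1.17% of all genes tested. The higher genes were Oas3 (1.01 ± 0.13, adjusted p = 0.0028), Usp18 (0.67 ± 0.19, adjusted p = 0.0496) and Dhx58 (0.62 ± 0.10, adjusted p = 0.00627). Usp18 was below 1 FPKM in both CXD101 libraries, as were 279 of all 11078 genes tested, and in both vehicle libraries. It entered this test only through the MS-275 libraries and could hardly be called lower. The lower genes were Slfn1 (-1.45 ± 0.21, adjusted p = 0.00527) and Slfn2 (-0.98 ± 0.05, adjusted p = 0.000184). The Usp18 call was lost under 9 of 11 alternatives, with adjusted p from 0.0561 to 0.185 in those, and the Dhx58 call was lost without M-MDSC MS-275 replicate 1. Whether the difference between the inhibitors itself differed between the subsets was not tested.

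The last comparison asked whether the subsets responded differently, as the log2 fold change in PMN-MDSCs minus that in M-MDSCs. Under MS-275 this difference was positive and called in 16 of the 39 genes (41.0%), against 8.65% of all 11662 genes tested, and negative and called in 0, against 9.48%. Under CXD101 it was positive and called in 13 genes (33.3%), against 7.31%, and negative and called in 0, against 6.59%. In the limma fit, at an unadjusted p under 0.05, 22 genes were positive and 2 negative under MS-275. At the same threshold, 25 were positive and 2 negative under CXD101. With libraries scaled to equal sums, which shifted the median of all genes by -0.34 under MS-275 and -0.29 under CXD101, the counts were 9 positive and 2 negative under MS-275 and 10 positive and 2 negative under CXD101. The negative genes were Bst2 and Dhx58 under MS-275 and Bst2 and Mx1 under CXD101. The shares of all genes called at equal sums were not computed. Bst2 was also called negative under MS-275 without PMN-MDSC MS-275 replicate 2 and under CXD101 without PMN-MDSC CXD101 replicate 1, for a count of 1 in each. The difference was called under both inhibitors for Cmpk2, Rsad2, Zbp1, Irf7, Rtp4, Slfn4, Slfn5 and all 4 IFITM genes. Rsad2 and Rtp4 were below 1 FPKM in every M-MDSC library and entered this test only through the PMN-MDSC libraries. A change of these 2 genes in M-MDSCs could hardly show on the scale of log2(FPKM + 1). At equal sums, Ifitm2 (0.49), Ifitm3 (0.20) and Ifitm6 (0.57) were no longer called under MS-275, nor were Slfn4 (0.72) and Ifitm3 (0.46) under CXD101. With a pseudocount of 0.1, Rtp4 was not called under MS-275 (adjusted p = 0.0599), nor was Slfn4 under either inhibitor. The Slfn4 difference under CXD101 kept its call in 8 of 19 alternatives, and the Ifitm3 difference under MS-275 also fell short of the fold threshold with quantile normalization and without any of 4 single libraries (0.53 to 0.56). For Slfn1, Slfn2, Parp9, Parp14 and Samhd1 the difference under MS-275 came with a fall or a negative change in M-MDSCs. A positive difference was thus of more than 1 kind, with 11 of the 16 genes called higher under MS-275 in PMN-MDSCs and a smaller fall in PMN-MDSCs in Slfn1 and Slfn2.

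Of the 34 genes tested in both subsets, 5 rose under MS-275 in both (Ifit2, Oas3, Dhx58, Ifitm1 and Ifitm6), 3 fell in both (Mx1, Slfn1 and Slfn2) and 15 were called in neither, while of all 10648 genes tested in both subsets 6.07% rose in both, 3.74% fell in both and 66% were called in neither. Under CXD101, 2 rose in both (Dhx58 and Ifitm6) and 21 were called in neither, against 3.01% and 76.7% of all genes. For Oas3 the response to MS-275 was not shown to differ between the subsets (0.35 ± 0.14, adjusted p = 0.0934), nor for Dhx58 (-0.33 ± 0.14, adjusted p = 0.103).

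**Figure D5:**
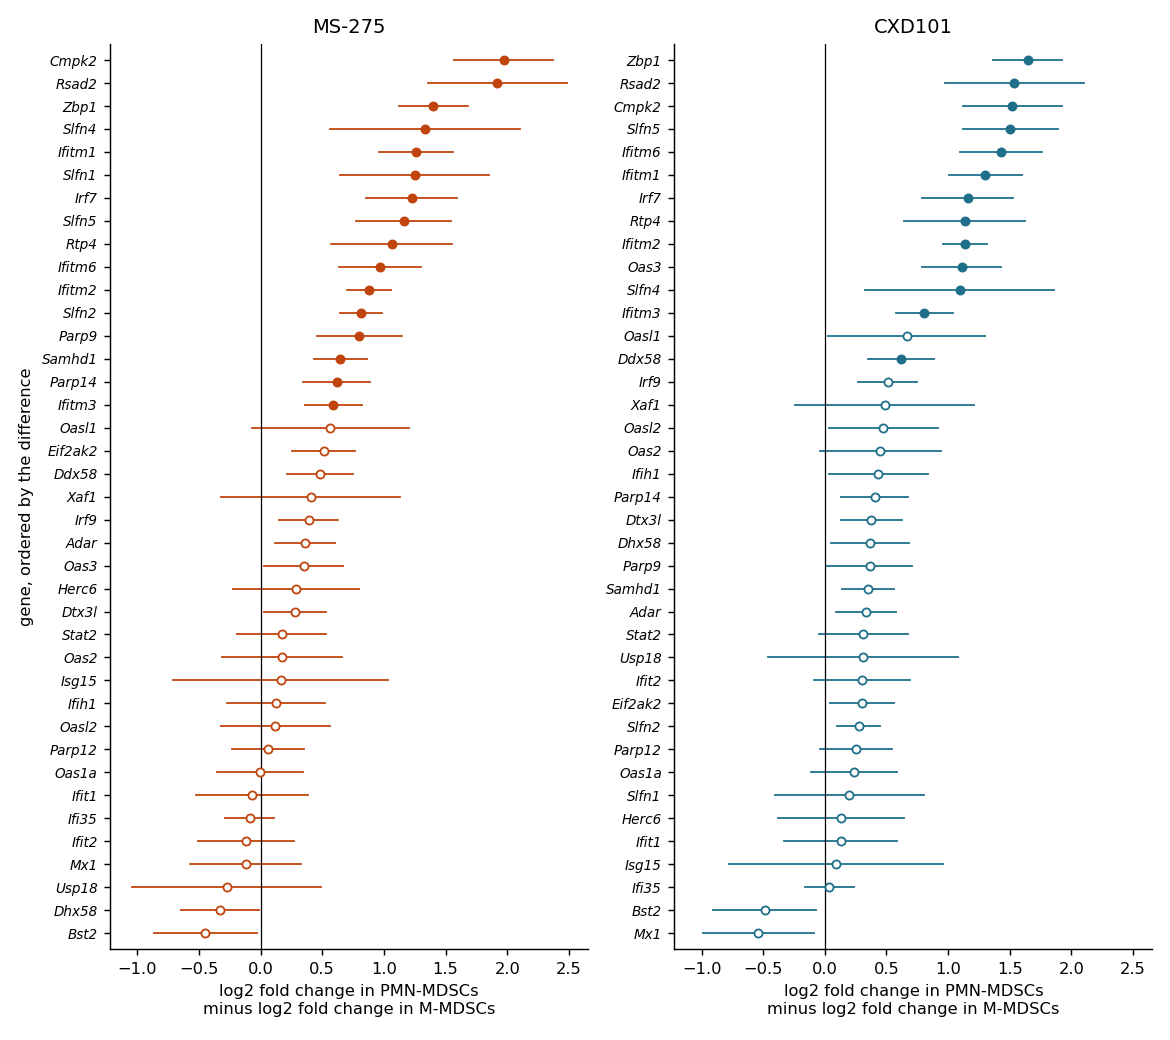
Difference in response between the subsets for the 39 genes, as the log2 fold change in PMN-MDSCs minus that in M-MDSCs (horizontal axis) under MS-275 (left) and CXD101 (right), with 95% confidence intervals. Filled points mark called genes, 16 on the left and 13 on the right, all of them above 0.

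Other genes of the pathway were looked up in lists separate from the 39 genes. Among 14 interferon and receptor genes, the interferon genes Ifnb1, Ifna1, Ifna2, Ifna4, Ifna5, Ifng, Ifnl2 and Ifnl3 were listed at 0 in all 12 libraries. The receptor genes Ifnar1 and Ifnar2 were measured in every library and were not called in any inhibitor comparison, with Ifnar1 at a mean of 16.2 FPKM in vehicle M-MDSCs and 23.7 FPKM in vehicle PMN-MDSCs. Of the 6 genes of this list tested in PMN-MDSCs, 1 rose under each inhibitor and 0 fell. That gene was Ifnlr1, the receptor chain for type III interferon, which was at 6.76 and 7.53 FPKM with vehicle, 24.7 and 24.4 under MS-275 and 19.4 and 20.3 under CXD101 (1.65 ± 0.09 and 1.36 ± 0.09). With 6 genes tested, 1 rise is near the share of all genes called higher, which was 14.6% under MS-275 and 11.9% under CXD101. Of the 5 tested in M-MDSCs, 1 fell under MS-275, against 7.32% of all genes. Under CXD101 limma called 0 of the 5, with 1 higher and 3 lower at an adjusted p under 0.05 but under the fold threshold. The gene that fell was Ifngr2, a receptor chain for interferon gamma (-0.72 ± 0.07).

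Among 17 receptor kinases, STATs and regulators, 2 rose and 2 fell under MS-275 in PMN-MDSCs, and 1 rose and 1 fell under CXD101. In M-MDSCs, 1 rose and 2 fell under MS-275, and 0 rose and 1 fell under CXD101. These shares, of at most 11.8% in either direction, were below those of all genes tested in PMN-MDSCs. In M-MDSCs the rises were below the shares of all genes (10.1% under MS-275 and 5.14% under CXD101). The falls were above them (7.32% and 3%) but rested on 2 genes and 1 gene. Irf5, a transcription factor that acts downstream of Toll-like receptors, fell in all 4 comparisons, with changes of -1.11 ± 0.06 and -0.70 ± 0.06 in M-MDSCs and -1.29 ± 0.09 and -1.05 ± 0.09 in PMN-MDSCs under MS-275 and CXD101. Socs1, which inhibits JAK signaling and is itself induced by interferon, rose under MS-275 in M-MDSCs (0.78 ± 0.16) and under both inhibitors in PMN-MDSCs (1.19 ± 0.08 and 0.85 ± 0.08). Irf8 fell under MS-275 in PMN-MDSCs (-1.03 ± 0.16), and Ptpn6, which encodes the phosphatase SHP-1, fell under MS-275 in M-MDSCs (-0.82 ± 0.05). Among 17 tested genes of nucleic acid sensing upstream of interferon, 0 rose and 2 fell under MS-275 in each subset. Under CXD101, 1 rose and 1 fell in PMN-MDSCs and 0 were called in M-MDSCs. These shares again did not exceed 11.8%, and only the 2 falls in M-MDSCs lay above the share of all genes (7.32%). Myd88, the Toll-like receptor adaptor, fell under MS-275 in M-MDSCs (-0.80 ± 0.06), and Ikbke, a kinase upstream of IRF3 and IRF7, fell under both inhibitors in PMN-MDSCs (-0.66 ± 0.06 and -0.78 ± 0.06). Unc93b1, which carries Toll-like receptors to endosomes, fell under MS-275 in PMN-MDSCs (-0.72 ± 0.07), and Tmem173, which encodes STING, rose there under CXD101 (0.62 ± 0.10).

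A further list of 59 interferon-inducible genes found among the symbols, none of them in the first list, had 47 genes tested in each subset. In PMN-MDSCs, 17 rose and 5 fell under MS-275 (36.2% and 10.6%, against 14.6% and 14.2% of all genes tested), and 16 rose and 4 fell under CXD101 (34.0% and 8.51%, against 11.9% and 9.54%). In M-MDSCs, 9 rose and 7 fell under MS-275 (19.1% and 14.9%, against 10.1% and 7.32%), and 2 rose and 3 fell under CXD101 (4.26% and 6.38%, against 5.14% and 3%). Oas1b, Oas1g, Ms4a6b and Phf11a were below 1 FPKM in both vehicle M-MDSC libraries, as were 497 of all 11078 genes tested. They entered the test there only through inhibitor libraries and could hardly be called lower. The list was chosen with earlier results of these data known. The largest changes under MS-275 in PMN-MDSCs were those of Sp140, a chromatin reader, at 1.92 ± 0.10 under MS-275 and 1.52 ± 0.10 under CXD101, and Ifi203, a member of the HIN200 family, which changed by -1.89 ± 0.16 and -1.31 ± 0.16. Isg20, an exonuclease that degrades RNA, rose by 1.65 ± 0.12 and 1.53 ± 0.12, and Helz2 rose by 1.44 ± 0.08 and 1.04 ± 0.08. Rises and falls thus stood side by side in this list as well.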

How the data were processed

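RNA was prepared with a stranded mRNA kit and sequenced with 101-base single-end reads from 12 libraries, 2 for each of 6 groups. The deposited values are FPKM per gene symbol, which the authors computed with TopHat2 2.1.1, Bowtie2 2.2.8, SAMtools 0.1.18 and Cuffdiff 2.2.1 on mm10, per the labels. Neither the annotation nor the use of strand in counting is given in the sources used here. FPKM values are not counts, so no count model was used.

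From these values, log2(FPKM + 1) was fitted with limma 3.58.1 (R 4.3.3, trended variance) across all genes that reached 1 FPKM in 2 or more libraries of the fit. Each subset was fitted on its 6 libraries, and the vehicle comparison and the differences in response on all 12. P-values were adjusted by Benjamini-Hochberg over all genes tested, and a gene was called at an adjusted p under 0.05 and a fold change above 1.5. The replicates are described as biological for the M-MDSC experiment, but whether each library was 1 animal or a pool is not stated, nor whether those of PMN-MDSCs were separate animals, so p-values measure the spread between these libraries, which may be technical. The smallest p of an exact permutation test of 2 against 2 libraries is 0.333, so none was used. The median standard error was 0.0975 in M-MDSCs, 0.114 in PMN-MDSCs and 0.156 for differences in response. Tested on simulated data, the fit recovered 180 of 200 genes changed by 1 on the log2 scale for MS-275 in M-MDSCs (11078 genes), with 0 false calls, and 156 of 200 for MS-275 in PMN-MDSCs (11184 genes), with 7 false calls. The simulated noise was independent between genes and 200 genes were changed, against 1628 called higher and 1586 lower under MS-275 in PMN-MDSCs. These figures may thus not hold for the measured data. Differences in response were not simulated.

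The genes, families and pathway lists were chosen with earlier results of these data known. Library values were given for the 5 largest called rises and the 5 largest called falls of each inhibitor comparison against vehicle and of the vehicle comparison, and for the gene with the highest vehicle FPKM of each family, with the others given by fold change, range or count. Of each pathway list, at most 4 called genes were given values, by size of change. Ifnar1 falls outside this rule and was chosen after its values were seen. Alternatives were a pseudocount of 0.1, no filter, an FPKM minimum of 5, median-of-ratios scaling, quantile normalization, a replicate block, 1 model for all 12 libraries, leaving out each library and, added after the data had been seen, equal FPKM sums. Gene coordinates are from GENCODE vM21 and promoter windows from RefSeq, both on GRCm38. Of 37 RefSeq windows of these genes, 26 had the stretch just after their start in an annotated GENCODE transcript of the gene. Python 3.11.15, pandas 2.3.3 and matplotlib 3.10.9 were used for the remaining steps.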

Additional observations from a re-analysis of the deposited data

Results flagged for a closer look

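The response to an inhibitor differed between PMN-MDSCs and M-MDSCs, by the limma interaction contrast in all 12 libraries, for 16 genes under MS-275 and 13 under CXD101. Values are the log2 fold change in PMN-MDSCs minus that in M-MDSCs. The vehicle libraries enter the values of both inhibitors. Rsad2 and Rtp4 were below 1 FPKM in every M-MDSC library, so their response there could hardly be measured.

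Under MS-275 the difference was 1.97 for Cmpk2, 1.92 for Rsad2, 1.4002 for Zbp1, 1.33 for Slfn4, 1.26 for Ifitm1, 1.25 for Slfn1, 1.22 for Irf7 and 1.16 for Slfn5. It was 1.06 for Rtp4, 0.97 for Ifitm6, 0.88 for Ifitm2, 0.81 for Slfn2, 0.80 for Parp9, 0.65 for Samhd1, 0.62 for Parp14 and 0.59 for Ifitm3. Adjusted p ranged from 4.45e-05 for Zbp1 to 0.0151 for Slfn4.

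Under CXD101 the difference was 1.65 for Zbp1, 1.54 for Rsad2, 1.52 for Cmpk2, 1.505 for Slfn5, 1.43 for Ifitm6, 1.303 for Ifitm1 and 1.16 for Irf7. It was 1.14 for Rtp4, 1.13 for Ifitm2, 1.11 for Oas3, 1.09 for Slfn4, 0.81 for Ifitm3 and 0.62 for Ddx58. Adjusted p ranged from 2.39e-05 for Ifitm2 to 0.0431 for Slfn4. The Slfn4 value under CXD101 was lost under 11 of 19 alternatives, with adjusted p from 0.0540 to 0.186 in those, and the Ifitm3 value under MS-275 under 6 of 19.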

How the results depend on the processing

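Each count of genes called and each named gene was recomputed under every alternative that could be fitted. For genes called in the fit described above, these alternatives gave 1702 values, of which 0 reversed, 1621 kept the call and 81 lost it. Of 105 calls of single genes, 72 were kept under every alternative. The shares of all genes called were not computed for the alternatives. With an FPKM minimum of 5, in which scarce genes are not tested, 3 genes were higher under MS-275 in M-MDSCs, 1 was higher under MS-275 in the direct comparison with CXD101 in M-MDSCs, and 0 were lower under CXD101 in PMN-MDSCs. With equal FPKM sums, chosen after seeing the data, 1 gene was higher under CXD101 in M-MDSCs, 12 were higher and 5 lower under MS-275 and 12 higher and 4 lower under CXD101 in PMN-MDSCs, and the differences in response were positive in 9 and negative in 2 genes under MS-275 and positive in 10 and negative in 2 under CXD101.

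Leaving out 1 library at a time gave 5 to 7 higher and 2 to 5 lower genes for MS-275 in M-MDSCs, 1 to 3 higher and 0 lower for CXD101 in M-MDSCs, and 2 to 3 higher and 2 lower for MS-275 against CXD101 in M-MDSCs. In PMN-MDSCs it gave 17 to 20 higher and 3 to 4 lower for MS-275, 16 higher and 1 to 2 lower for CXD101, and 0 in either direction between the inhibitors. It gave 17 to 19 higher and 2 to 3 lower between the subsets, 13 to 17 positive and 0 to 1 negative for the response to MS-275 and 11 to 13 positive and 0 to 1 negative for that to CXD101.

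Libraries with the same replicate number did not deviate together across genes (correlations from -0.126 to 0.179). This check cannot exclude a pairing whose effect is small beside the spread between libraries. A replicate block changed 1 count, to 2 genes higher under MS-275 than under CXD101 in M-MDSCs, where Usp18 had an adjusted p of 0.0716. At this depth, genes near 1 FPKM rest on few reads. Among these scarce genes, the Usp18 calls within M-MDSCs and the Oasl1 call under CXD101 in PMN-MDSCs were lost under some alternatives.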
